A study of Mus musculus with 13 samples.

Results

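The proteasome genes of whole mouse hearts are described here across pressure overload and TUDCA treatment. Members were the genes of the deposited normalized table whose probe symbol was Psma, Psmb, Psmc, Psmd, Psme, Psmf or Psmg followed by a number, and the brightest probe stood for each gene. The rule found 41 genes of 8336 measured, of which 5 were inducible (Psmb8, Psmb9, Psmb10, Psme1 and Psme2) and 36 were constitutive subunits, activators or assembly factors. RefSeq lists 48 protein-coding mouse genes with such a symbol, and the other 7 (Psma1, Psma6, Psma8, Psmb11, Psmd3, Psmf1 and Psmg4) had no named probe among those analysed. All 41 genes were detected on all 13 arrays.

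Hearts came from male C57BL/6 mice of 8 to 10 weeks, 1 week after surgery, and each array held 1 heart, labelled as a biological replicate. Transverse aortic constriction (TAC) narrows the aortic arch and loads the left ventricle with pressure, and tauroursodeoxycholic acid (TUDCA) is a bile acid used as a chemical chaperone. The TUDCA-TAC group (4 hearts) had TAC and oral TUDCA at 300 mg/kg per day in water, the TUDCA-Sham group (3) had sham surgery and the same TUDCA, the Veh-TAC group (3) had TAC and water alone, and the Veh-Sham group (3) had sham surgery and water. Treatment began on the day of surgery, and none carried a genetic change. The arrays hold RNA of the whole heart, so fewer cells of a type and less RNA per cell cannot be told apart.

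The proteasome is the barrel-shaped protease that degrades proteins tagged with ubiquitin, and it clears damaged and misfolded proteins in heart muscle. Its core particle has outer alpha rings that gate entry and inner beta rings that hold the catalytic sites, and the regulatory cap unfolds tagged substrates with a ring of ATPases. Interferon-gamma exchanges the constitutive catalytic subunits Psmb5, Psmb6 and Psmb7 for Psmb8, Psmb9 and Psmb10, which gives the immunoproteasome, the form that many immune cells carry constitutively. Psme1 and Psme2 encode the alpha and beta chains of the PA28 activator, an interferon-inducible cap that opens the core without ATP.

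Start-site regions are shown for the inducible genes that lie close together in the genome. Psme1 and Psme2, which encode the chains of one activator, both lie on chromosome 14. Psmb9 and Psmb8 lie on chromosome 17 with the peptide transporter gene Tap1 between them. Each stretch runs 5′ to 3′ on the gene's own strand over 180 bases, from 150 bases before the RefSeq start to 30 bases after it (GRCm38.p6; for Psme2 the first of 2 listed starts), and capitals mark motif matches.
Psmb8, chr17:34198045-34198224, plus strand: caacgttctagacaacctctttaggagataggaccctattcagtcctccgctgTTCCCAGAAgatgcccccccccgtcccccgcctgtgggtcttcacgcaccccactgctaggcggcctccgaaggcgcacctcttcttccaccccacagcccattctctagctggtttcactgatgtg
Psmb9, chr17:34187301-34187480, minus strand: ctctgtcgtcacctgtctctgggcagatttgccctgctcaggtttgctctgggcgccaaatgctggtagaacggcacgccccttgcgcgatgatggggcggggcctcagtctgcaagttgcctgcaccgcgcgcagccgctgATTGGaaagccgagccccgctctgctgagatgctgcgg
Psme1, chr14:55578344-55578523, plus strand: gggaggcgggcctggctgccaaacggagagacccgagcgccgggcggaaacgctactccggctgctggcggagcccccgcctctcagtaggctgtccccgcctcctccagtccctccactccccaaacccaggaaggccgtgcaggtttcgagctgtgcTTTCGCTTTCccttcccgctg
Psme2, chr14:55591072-55591251, minus strand: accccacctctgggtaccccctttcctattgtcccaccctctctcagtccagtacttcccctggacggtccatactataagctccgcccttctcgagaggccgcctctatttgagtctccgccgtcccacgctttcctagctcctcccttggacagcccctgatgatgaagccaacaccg

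Motifs were searched on both strands of the window from 250 bases before to 50 after the start, and 35 of the 41 genes matched an entry. The core of the interferon-stimulated response element, which is GAAA, any 2 bases and GAAA again, was found in 4 of these 35 genes (11.4%), against 3.99% of all genes with an entry. The 4 were Psme1, where the match lies on the minus strand just after the start, and the constitutive genes Psmb3, Psmd4 and Psmd9. The core of the gamma-activated site, TTCNNNGAA, was found in 8.57% of the proteasome genes, Psmb8 among them, and in 9.55% of all genes. The core of the antioxidant response element, TGACNNNGC, was found in 17.1% of the proteasome genes and 14% of all genes, and CCAAT, which the Psmb9 region holds as its reverse complement, in 31.4% of the proteasome genes and 41.1% of all genes. The Psme2 region held none of the 4 motifs, and a match of letters describes the sequence only.

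Several features of the arrays bear on these genes. The background, taken as the median raw intensity of probes without signal, was 141.4 on the array of TUDCA-TAC replicate 4. It was 226.4 to 237.9 on the other TUDCA-TAC arrays and TUDCA-Sham replicate 3, and 258.7 to 273.9 on the rest. All TUDCA-TAC arrays thus lay below all Veh-TAC arrays, so treatment and array background cannot be told apart in that comparison. Among the TUDCA-TAC hearts, replicates 3 and 4 both lay below replicates 1 and 2 for 25 of the 41 proteasome genes (61%), against 32.1% of all genes, and both lay above them for 3 (7.32%), against 28.1% of all genes. The median SD of the proteasome genes was 0.174 in the TUDCA-TAC group and 0.086 to 0.107 in the other groups, on the log2 scale. Over all genes it was also largest in the TUDCA-TAC group, at 0.223 against 0.153 to 0.173. Results that rest on the TUDCA-TAC group are therefore given with all 4 hearts and, where the value moves, without replicates 3 and 4. That pair was picked after low values in these same proteasome genes were seen. Leaving it out is thus no independent check, and a rise of those genes without it follows from the choice. Of the cell type markers, 9 of 9 measured leukocyte genes, 5 of 7 fibroblast genes and 1 of 7 endothelial genes were higher in the Veh-TAC group than in the Veh-Sham group, and 1 of 7 cardiomyocyte genes was lower. Over all genes 12.5% were higher and 12.5% lower. The endothelial and cardiomyocyte shares, 14.3% each, were near that background. Of the 7 cardiomyocyte markers measured, 6 (Myh6, Tnni3, Actn2, Myl2, Myl3 and Pln) were detected on all 13 arrays, with Myl2 and Myl3 near the top of the scale, and Ryr2 was detected on 10 of them at log2 signals of 5.33 to 8.15.

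In the Veh-TAC group 2 proteasome genes were higher and 2 were lower than in the Veh-Sham group at an adjusted p under 0.05, and 37 did not pass. Over all 8336 genes, 25% passed this test, 12.5% in each direction, so that the shares of proteasome genes, 4.88% higher and 4.88% lower, were below the background. The median log2 difference of the 41 genes was -0.04, beside -0.03 over all genes, and the single values spanned -0.69 to 0.55. Without overlap between these groups, 6 of the 41 were higher and 13 lower, beside 19.4% and 23.7% of all genes. The genes that passed were Psmd8 and Psma5, which were higher, and Psme1 and Psmc5, which were lower. Adjusted p-values come from limma over all genes with the Benjamini-Hochberg method, except those of the permutation tests on ratios of gene pairs. The ranges over alternative settings also include the methods' t-test after Benjamini-Hochberg.

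Of the 5 inducible genes, 1 (Psme1) was lower after TAC, 0 were higher and 4 did not pass, and their median log2 difference was -0.16, beside -0.02 for the 36 constitutive genes.

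Psme1 had log2 signals of 13.44, 13.14 and 13.06 in the Veh-TAC hearts, against 13.67, 13.85 and 13.58 in the Veh-Sham hearts. All Veh-TAC hearts lay below all Veh-Sham hearts, and the log2 difference was -0.49 (SE 0.14, adjusted p = 0.02), a ratio of 0.712. A second Psme1 probe, not used for the test, gave a log2 difference of -0.64. The call was lost in 5 of 26 alternative settings. Median scaling gave an adjusted p of 0.0656, and the methods' t-test after Benjamini-Hochberg gave 0.104. The other losses were without Veh-Sham replicate 2 (adjusted p = 0.0766), Veh-TAC replicate 2 (0.0759) or Veh-TAC replicate 3 (0.0803).

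Psme2, which pairs with Psme1 in the same ring, had 8.13, 7.54 and 8.03 in the Veh-TAC hearts, against 8.36, 8.93 and 8.47 in the Veh-Sham hearts. These groups did not overlap either, but the log2 difference of -0.69 (SE 0.25) missed the threshold (adjusted p = 0.0646). Psme2 passed in 3 of 26 alternative settings, with differences of -0.8 to -0.36 and adjusted p-values of 0.0175 to 0.239 over all of them. It was read by 1 probe, at log2 signals of 7.54 to 8.93 over all hearts. Both PA28 genes were therefore at lower values after TAC, while 23.7% of all genes were lower without overlap between these groups.

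Psmb10, which carries the trypsin-like site of the immunoproteasome, had 12.38, 12.15 and 12.40 in the Veh-TAC hearts, against 11.89, 12.06 and 11.94 in the Veh-Sham hearts. It was the one inducible gene with a positive difference, 0.35 (SE 0.12, adjusted p = 0.0559), and the groups did not overlap; 19.4% of all genes were higher in that way. Its second probe gave 0.37. Psmb10 passed in 5 of the 26 alternative settings, with adjusted p-values between 0.029 and 0.163 over all of them.

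Psmb8, which carries the chymotrypsin-like site, had 7.17, 6.48 and 7.11 in the Veh-TAC hearts, against 7.01, 7.30 and 6.92 in the Veh-Sham hearts. The groups overlapped, with a log2 difference of -0.16 (95% interval -0.62 to 0.31, adjusted p = 0.641). Psmb9, the remaining inducible catalytic subunit, had 10.37, 10.18 and 9.95 in the Veh-TAC hearts, against 10.28, 10.31 and 10.25 in the Veh-Sham hearts. Its difference was -0.11 (95% interval -0.44 to 0.21, adjusted p = 0.627). A rise in probe signal of over 0.31 for Psmb8 or 0.21 for Psmb9 lay outside the interval. Psmb8 was read by 1 dim probe, at log2 signals of 6.48 to 7.66 over all hearts, so its interval describes that probe's signal only.

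**Figure D1:**
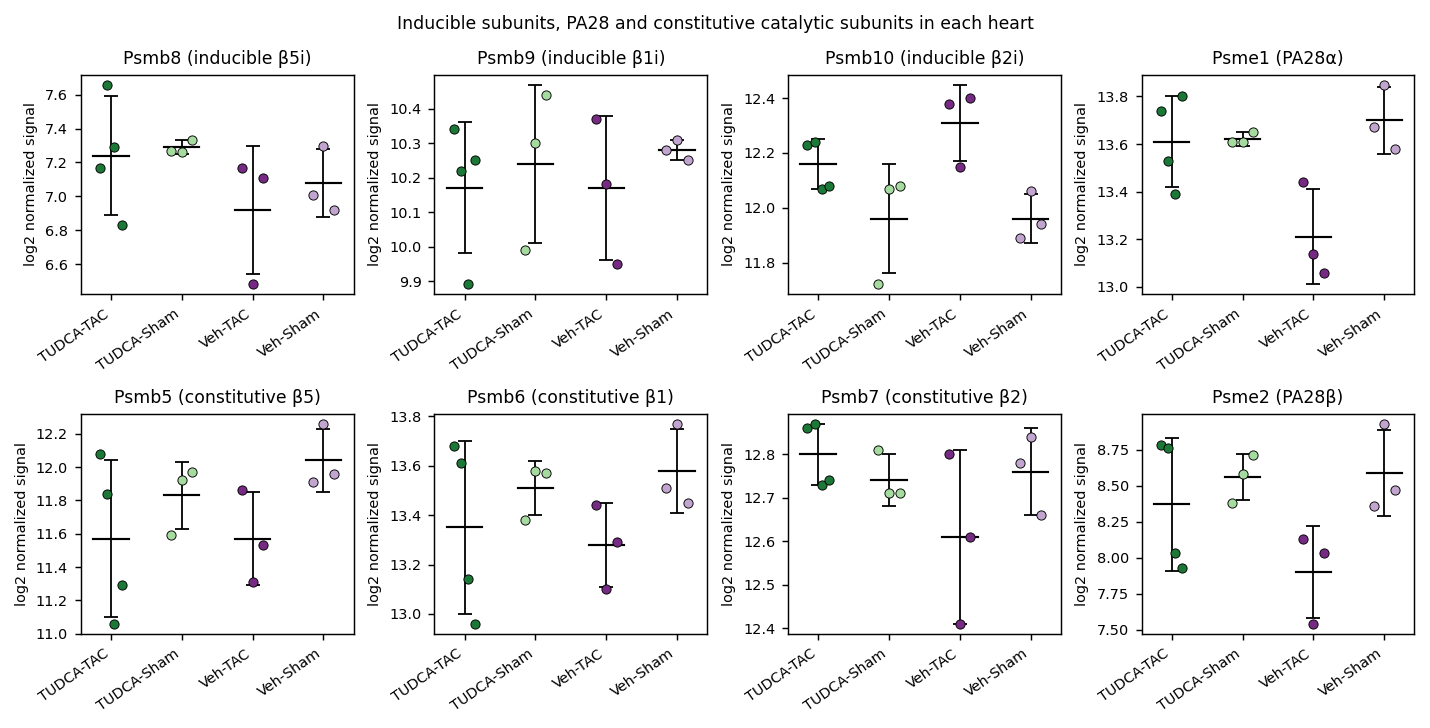
Log2 normalized signal (vertical axes) of Psmb8, Psmb9, Psmb10 and Psme1 (upper row) and of Psmb5, Psmb6, Psmb7 and Psme2 (lower row) in each heart, with banded (TAC) and sham hearts under TUDCA on the left and under vehicle on the right; points are hearts, horizontal lines are means and bars are 1 SD, and each panel has its own scale. Psme1 lies between 13.06 and 13.44 in the Veh-TAC hearts, below the 13.58 to 13.85 of the Veh-Sham hearts, and Psmb5 and Psmb6 spread widest in the TUDCA-TAC group.

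Markers of leukocytes, which carry immunoproteasomes, were higher after TAC under vehicle. From 16 listed symbols, which include an alias of Adgre1, 9 genes were measured (Cd14, Adgre1, Lyz2, Laptm5, Tyrobp, Fcer1g, Coro1a, Cd52 and Cd53). They had a median log2 difference of 0.89 in Veh-TAC relative to Veh-Sham hearts, and all 9 passed in the direction of higher. Their summed normalized signal was 33623 to 36877 in the Veh-TAC hearts, against 17405 to 19080 in the Veh-Sham hearts. In the TUDCA-TAC hearts the sum was 16910 to 22749, against 17428 to 23162 in the TUDCA-Sham hearts, and 0 of 9 passed. The part of leukocyte RNA in the values of Psmb10 and the other inducible genes was not tested.

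In each heart the median shift of the 5 inducible genes from the Veh-Sham mean was -0.31 to 0.17 in the TUDCA-TAC group, -0.2 to 0.12 in the TUDCA-Sham group, -0.57 to 0.09 in the Veh-TAC group and -0.11 to 0.15 in the Veh-Sham group. These ranges overlap in all groups. The 36 other genes had medians of -0.13 to 0.06 over the TUDCA-TAC hearts, -0.02 to 0.04 over the TUDCA-Sham hearts, -0.09 to 0.01 over the Veh-TAC hearts and -0.03 to 0.05 over the Veh-Sham hearts. For the leukocyte markers the Veh-TAC hearts, at 0.79 to 1.01, stood clear of the TUDCA-TAC hearts at 0 to 0.47 and of the Veh-Sham hearts at -0.09 to 0.1.

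**Figure D2:**
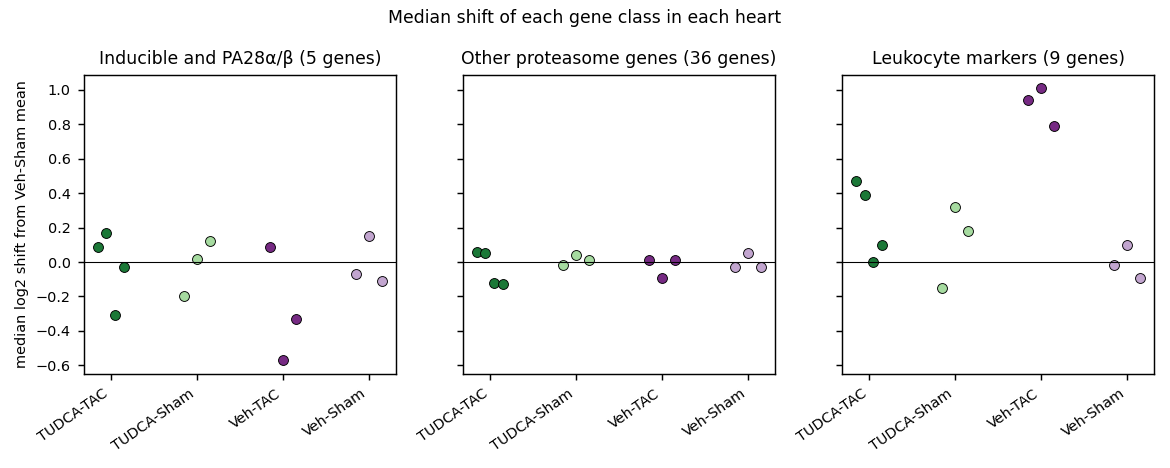
Median log2 shift from the Veh-Sham mean (vertical axis) of the 5 inducible proteasome genes, the 36 other proteasome genes and 9 leukocyte markers; each point is 1 heart, with banded and sham hearts under TUDCA on the left and under vehicle on the right of each panel. The Veh-TAC hearts lie at 0.79 to 1.01 for the leukocyte markers and between -0.57 and 0.09 for the inducible genes.

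By the probes used, the constitutive catalytic subunits that the inducible ones replace all had negative differences in Veh-TAC relative to Veh-Sham hearts. Of these 3 genes, 0 passed, and for Psmb7 the result depends on the probe. Psmb5, the chymotrypsin-like subunit, had 11.86, 11.31 and 11.53 in the Veh-TAC hearts, against 11.91, 12.26 and 11.96 in the Veh-Sham hearts, with a log2 difference of -0.48 (SE 0.24, adjusted p = 0.177). Psmb6, the caspase-like subunit, had 13.44, 13.10 and 13.29 in the Veh-TAC hearts, against 13.51, 13.77 and 13.45 in the Veh-Sham hearts, with a difference of -0.3 (adjusted p = 0.267). Neither gene overlapped between the groups, as for 23.7% of all genes in this direction.

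Psmb7, the trypsin-like subunit, had 12.80, 12.41 and 12.61 in the Veh-TAC hearts, against 12.78, 12.84 and 12.66 in the Veh-Sham hearts. These groups overlapped, with a difference of -0.15 (adjusted p = 0.347). Its 3 probes disagreed, with -0.15 for the probe used and -0.61 and 0.08 for the others, so the value of Psmb7 depends on the probe. The probe at -0.61 was nearly as bright as the one used (mean log2 signal 12.64 against 12.73). It had an unadjusted p of 0.00062 by limma over the proteasome probes alone.

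Each inducible catalytic subunit was also set against the constitutive one it replaces, as the log2 ratio in each heart relative to the Veh-Sham mean. Psmb10 over Psmb7 was at 0.38 to 0.59 in the Veh-TAC hearts, against -0.1 to 0.08 in the Veh-Sham hearts, a difference of 0.5. Psmb8 over Psmb5 was at 0.13 to 0.55 in the Veh-TAC hearts, against -0.08 to 0.06 in the Veh-Sham hearts, a difference of 0.32. For both ratios all Veh-TAC hearts exceeded all Veh-Sham hearts, which gives an exact two-sided permutation p of 0.1, the smallest that 3 against 3 hearts allow, and 0.3 after adjustment. Psmb9 over Psmb6 overlapped between the groups, with a difference of 0.18 (exact permutation p = 0.3). A ratio shows unequal change of its 2 genes, and in these pairs the constitutive gene had a negative difference each time. The probes of Psmb7 disagreed, and the ratio was taken with the brightest one and not with the others. The ratio of Psmb8 over Psmb5 rests on the dim Psmb8 probe.

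With TUDCA, Psmb10 over Psmb7 stood at 0.14 to 0.18 in the TUDCA-TAC hearts, against 0.38 to 0.59 in the Veh-TAC hearts. That difference of -0.34 had an exact two-sided permutation p of 0.0286, the smallest that 4 against 3 hearts allow, and 0.257 after adjustment over the 9 comparisons of these ratios. Against the TUDCA-Sham hearts, at -0.29 to 0.17, the difference was 0.15 (exact permutation p = 0.314). Psmb8 over Psmb5 ran from 0.05 to 1.19 among the TUDCA-TAC hearts and thus spanned both the TUDCA-Sham range of 0.31 to 0.64 and the Veh-TAC range.

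After TAC under TUDCA the inducible genes lay close to the TUDCA-Sham group, and 0 of the 41 proteasome genes passed, while 1.79% of all genes did. At an unadjusted p under 0.05, 3 of the 41 were counted, a smaller share than the 16.6% of all genes. The medians were -0.05 for the inducible and -0.04 for the constitutive genes. Without TUDCA-TAC replicates 3 and 4 these medians were 0.13 and 0.07, a rise that follows from leaving out hearts picked for low values.

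Psme1 had 13.74, 13.53, 13.39 and 13.80 in the TUDCA-TAC hearts, against 13.61, 13.61 and 13.65 in the TUDCA-Sham hearts, with a log2 difference of -0.01 (95% interval -0.28 to 0.27). Psme2 had 8.78, 8.76, 8.03 and 7.93 in the TUDCA-TAC hearts, against 8.38, 8.58 and 8.71 in the TUDCA-Sham hearts, with a difference of -0.18 (95% interval -0.7 to 0.33). For Psme2 the TUDCA-TAC hearts formed a higher pair, replicates 1 and 2, and a lower pair, replicates 3 and 4. Psmb10 had 12.23, 12.24, 12.07 and 12.08 in the TUDCA-TAC hearts, against 11.72, 12.07 and 12.08 in the TUDCA-Sham hearts, with a difference of 0.2 (adjusted p = 0.414). TUDCA-Sham replicate 1 was the lowest heart in that comparison.

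Psmb8 had 7.17, 7.66, 7.29 and 6.83 in the TUDCA-TAC hearts, against 7.27, 7.26 and 7.33 in the TUDCA-Sham hearts, with a difference of -0.05 (adjusted p = 0.933). Psmb9 had 10.34, 10.22, 9.89 and 10.25 in the TUDCA-TAC hearts, against 9.99, 10.30 and 10.44 in the TUDCA-Sham hearts, with a difference of -0.07 (adjusted p = 0.855). Both genes overlapped between the groups.

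The constitutive partners Psmb5 and Psmb6 also showed the split of the TUDCA-TAC hearts. Psmb5 had 12.08, 11.84, 11.06 and 11.29 in the TUDCA-TAC hearts, against 11.59, 11.92 and 11.97 in the TUDCA-Sham hearts. Psmb6 had 13.68, 13.61, 13.14 and 12.96 in the TUDCA-TAC hearts, against 13.38, 13.58 and 13.57 in the TUDCA-Sham hearts. Replicates 1 and 2 lay above all TUDCA-Sham hearts, apart from replicate 2 for Psmb5, and replicates 3 and 4 lay below all of them. Psmb7, with 12.86, 12.87, 12.73 and 12.74 in the TUDCA-TAC hearts and 12.81, 12.71 and 12.71 in the TUDCA-Sham hearts, spread less.

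Between the banded groups, 3 of 41 proteasome genes passed, 2 higher and 1 lower with TUDCA than with vehicle, while 16.4% of all genes passed (8.17% higher and 8.25% lower). The genes were Psme1 and Psme3, which were higher, and Psmd8, which was lower. With the array background as a term, 0 of the 41 passed, and 209 of all genes did, against 1369 without it. Array background and treatment cannot be told apart between these groups. The median difference was 0.31 over the 5 inducible genes and 0.01 over the constitutive ones.

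Psme1 was higher by 0.4 in banded hearts with TUDCA than with vehicle (SE 0.13, adjusted p = 0.0483), with the lowest TUDCA-TAC heart, at 13.39, below the highest Veh-TAC heart, at 13.44. This call was lost in 17 of 26 alternative settings, with adjusted p-values up to 0.318. Among them were the settings without Veh-TAC replicate 2 (0.161), Veh-TAC replicate 3 (0.179), TUDCA-TAC replicate 1 (0.0948), TUDCA-TAC replicate 2 (0.0656) or TUDCA-TAC replicate 4 (0.107), and those without any 1 sham heart (0.0507 to 0.0654).

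Psme2 differed by 0.48 (adjusted p = 0.19) with all hearts. Without TUDCA-TAC replicates 3 and 4, in which Psme2 itself was low, the difference was 0.87, a value given without a test. Psmb8 differed by 0.31 (adjusted p = 0.315), Psmb10 by -0.15 (adjusted p = 0.397) and Psmb9 by 0.01 (adjusted p = 0.981). The leukocyte markers had a median of -0.76 in the same comparison, and 6 of 9 were lower, so their order was opposite to that of Psme1. How far this bears on the inducible genes was not tested.

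Psme3, another member of the PA28 family that forms a ring of its own in the nucleus, had 9.84, 10.00, 9.98 and 10.18 in the TUDCA-TAC hearts, against 9.65, 9.58 and 9.27 in the Veh-TAC hearts. The groups did not overlap, as for 13% of all genes in this direction, and the log2 difference was 0.5 (SE 0.12, adjusted p = 0.0142). The sham groups had 10.02, 9.88 and 9.93 with TUDCA and 9.78, 9.79 and 9.95 with vehicle, and the response to TAC was 0.06 under TUDCA and -0.34 under vehicle (adjusted p = 0.0644). The higher value in the TUDCA-TAC group no longer passed in 7 of 26 settings, with adjusted p-values up to 0.137, which was reached at 0.4 with the array background as a term. Among the others were the replicate block (0.44, adjusted p = 0.0578) and the fits without Veh-TAC replicate 3 (0.39, adjusted p = 0.0628) or TUDCA-TAC replicates 3 and 4 (0.42, adjusted p = 0.0633). Psme4, which encodes the cap PA200, had 13.71, 13.76, 14.21 and 14.10 in the TUDCA-TAC hearts, against 13.90, 14.27 and 14.17 in the Veh-TAC hearts, and did not pass.

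Psmd8, a subunit of the lid of the regulatory cap, was the proteasome gene with the largest positive difference in the Veh-TAC group. It had 12.76, 12.71 and 12.74 in the Veh-TAC hearts, against 12.31, 12.26 and 12.01 in the Veh-Sham hearts, a log2 difference of 0.55 (SE 0.11, adjusted p = 0.00386) and a ratio of 1.46. This call stood in all 26 alternative settings (adjusted p = 0.000965 to 0.0464). The TUDCA-TAC hearts had 12.37, 12.43, 12.16 and 12.23, against 12.12, 12.28 and 12.19 in the TUDCA-Sham hearts, which overlapped.

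Set against the Veh-TAC group, Psmd8 fell by 0.44 in the TUDCA-TAC group (SE 0.1, adjusted p = 0.0151), and all 4 TUDCA-TAC hearts lay below all 3 Veh-TAC hearts. In this direction, 13.2% of all genes did not overlap. The call was lost in 7 of 26 settings, and the difference was -0.4 (adjusted p = 0.117) with the array background as a term and -0.42 (adjusted p = 0.0638) with median scaling. Without Veh-TAC replicate 2 the adjusted p was 0.0563, without Veh-TAC replicate 3 it was 0.0502, and without TUDCA-TAC replicates 3 and 4 the difference was -0.34 (adjusted p = 0.0715).

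Psma5, a subunit of the alpha ring, had 14.15, 14.17 and 14.22 in the Veh-TAC hearts, against 13.76, 13.80 and 13.74 in the Veh-Sham hearts. The hearts of each group lay within a narrow band, and the log2 difference was 0.41 (SE 0.09, adjusted p = 0.00441), a ratio of 1.33; the call was lost in 1 of 26 settings. With TUDCA, Psma5 had 14.09, 14.01, 13.96 and 14.09 after TAC, against 13.78, 13.85 and 13.89 after sham surgery. All TUDCA-TAC hearts were above all TUDCA-Sham hearts here too, as for 6.72% of all genes, but the difference of 0.2 did not pass (SE 0.08, adjusted p = 0.234). The other 4 alpha ring genes measured (Psma2, Psma3, Psma4 and Psma7) did not pass in either response, at -0.06 to 0.23 under vehicle.

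Psmc5, 1 of the ATPases that unfold substrates, had 12.56, 12.44 and 12.54 in the Veh-TAC hearts, against 12.81, 12.84 and 12.78 in the Veh-Sham hearts. The groups did not overlap, and the log2 difference was -0.29 (SE 0.1, adjusted p = 0.0441), a ratio of 0.816, with -0.36 from a second probe. This adjusted p lay close to the threshold, and 14 of 26 settings lost the call. Leaving out any 1 of the 6 vehicle hearts gave adjusted p-values between 0.0562 and 0.145, and leaving out TUDCA-Sham replicate 1, 2 or 3 or TUDCA-TAC replicate 1 or 2 gave 0.0523 to 0.0605. The other 5 ATPase genes did not pass, at -0.21 for Psmc3 to 0.24 for Psmc4.

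**Figure D3:**
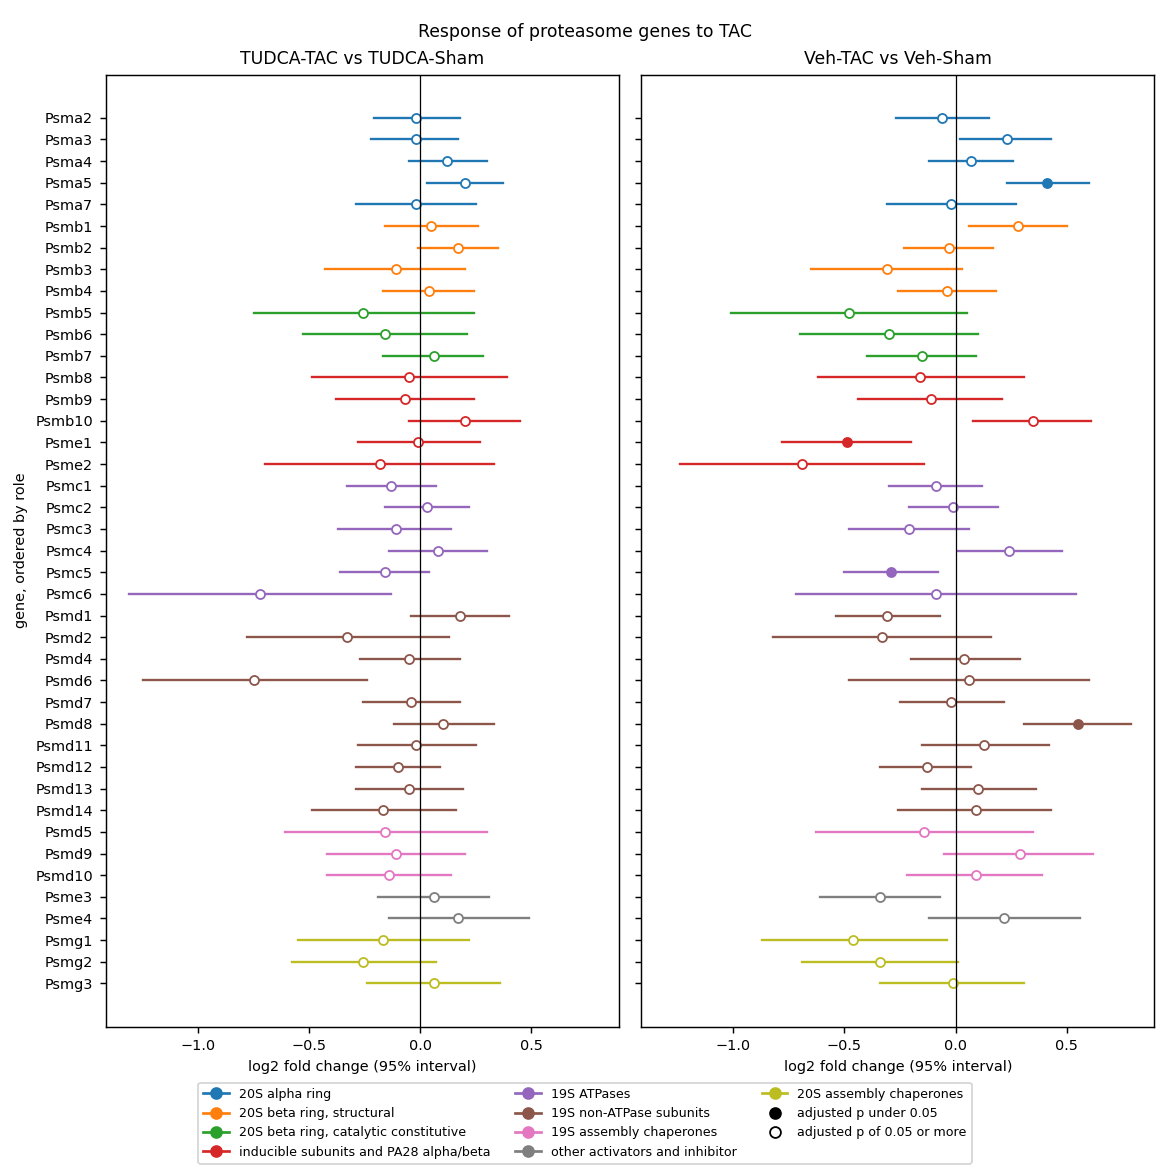
Log2 fold change (horizontal axes, with 95% intervals as bars) of the 41 proteasome genes, ordered by role, for TUDCA-TAC against TUDCA-Sham (left) and Veh-TAC against Veh-Sham (right); filled points passed an adjusted p of 0.05 and open points did not. Psma5, Psmd8, Psme1 and Psmc5 are filled on the right and 0 genes are filled on the left, where Psmd6 and Psmc6 lie farthest from zero.

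In the remaining roles no gene but Psmd8 passed under vehicle. The 4 structural beta ring genes had a median of -0.04, with Psmb1 at 0.28 (adjusted p = 0.0643) and Psmb3 at -0.31 (adjusted p = 0.169). The 3 factors that assemble the core (Psmg1, Psmg2 and Psmg3) had a median of -0.34, with Psmg1 at -0.46 (SE 0.19, adjusted p = 0.0999). The 3 chaperones of the cap (Psmd5, Psmd9 and Psmd10) had a median of 0.09. Of the 10 non-ATPase subunits of the cap, Psmd8 passed, and the other 9 included the ubiquitin receptor Psmd4 at 0.04 and the deubiquitinase Psmd14 at 0.09.

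Psmd1, a large scaffold of the base, had differences of opposite sign in the 2 responses and passed in neither. It had 9.66, 9.68, 9.68 and 9.98 in the TUDCA-TAC hearts, against 9.49, 9.59 and 9.63 in the TUDCA-Sham hearts, a difference of 0.18. Under vehicle it had 9.53, 9.40 and 9.46 in the Veh-TAC hearts, against 9.74, 9.70 and 9.88 in the Veh-Sham hearts, a difference of -0.31 (adjusted p = 0.0586). This vehicle difference passed in 7 of 26 alternative settings, among them the replicate block (adjusted p = 0.0404) and the array background as a term (0.0199), with adjusted p-values between 0.0199 and 0.704 over all of them. The difference between the responses to TAC, TUDCA less vehicle, was 0.49 (SE 0.15, unadjusted p = 0.00682, adjusted p = 0.106).

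Over that test of the difference, 0 of the 41 proteasome genes passed, and 2.14% of all genes did; 5 of the 41 had an unadjusted p under 0.05, a smaller share than the 19.6% of all genes. They were Psmd1, Psme1 at 0.48 (adjusted p = 0.174), Psmd8 at -0.45 (adjusted p = 0.129), Psmd6 at -0.8 (adjusted p = 0.211) and Psme3 at 0.4 (adjusted p = 0.215). The median difference between the responses was 0.11 over the inducible and 0 over the constitutive genes. That Psme1, Psma5, Psmc5 and Psmd8 passed under vehicle and not under TUDCA is therefore not shown to be a difference between the treatments. The same 3 Veh-TAC hearts enter the comparison with Veh-Sham hearts and the comparison with TUDCA-TAC hearts.

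Psmd6 and Psmc6 had the largest negative differences under TUDCA. Psmd6, a lid subunit, had 9.12, 9.33, 8.71 and 8.20 in the TUDCA-TAC hearts, against 9.59, 9.79 and 9.37 in the TUDCA-Sham hearts. All TUDCA-TAC hearts lay below all TUDCA-Sham hearts, as for 8.27% of all genes, and the log2 difference was -0.75 (SE 0.23, unadjusted p = 0.00713, adjusted p = 0.124), with -0.79 from a second probe. Psmc6, an ATPase, had 7.42, 7.12, 6.61 and 6.33 in the TUDCA-TAC hearts, against 7.72, 7.98 and 7.08 in the TUDCA-Sham hearts. The Psmc6 difference was -0.72 (adjusted p = 0.203), and -0.98 to -0.26 over 26 alternative settings. Its 1 probe was dim, at log2 signals of 6.33 to 7.98 over all hearts. In both genes replicates 3 and 4 were the lowest of the TUDCA-TAC hearts.

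Without those 2 hearts, picked after their low values were seen, the differences were -0.36 for Psmd6 and -0.32 for Psmc6. Under vehicle they were 0.06 for Psmd6, which had 9.58, 9.40 and 9.49 in the Veh-TAC hearts and 9.75, 9.28 and 9.25 in the Veh-Sham hearts, and -0.09 for Psmc6. Psmd11 and Psmd12, also of the lid, gave probe-dependent values under TUDCA. Psmd11 was at -0.02 by the probe used and -0.74 by a dimmer one, and Psmd12 at -0.1 and -0.62.

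**Figure D4:**
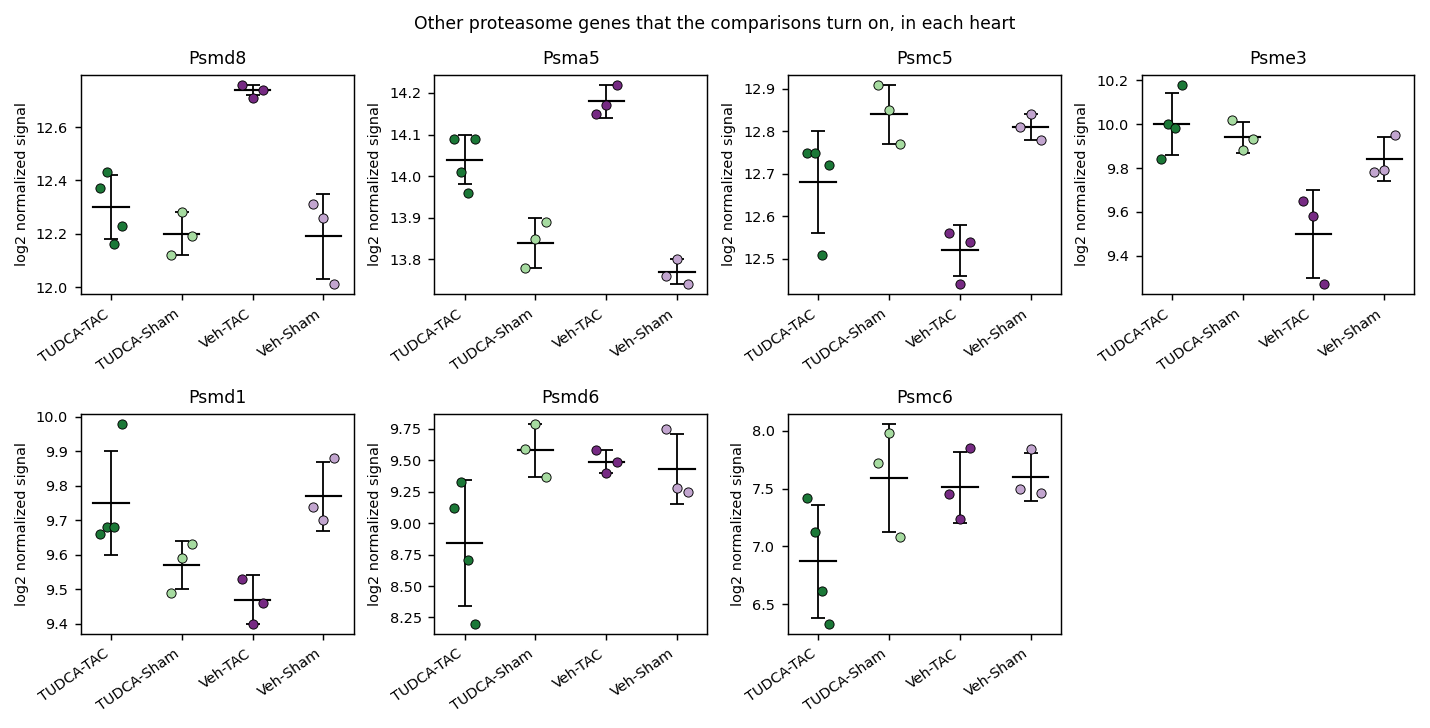
Log2 normalized signal (vertical axes) of Psmd8, Psma5, Psmc5, Psme3, Psmd1, Psmd6 and Psmc6 in each heart, with banded (TAC) and sham hearts under TUDCA on the left and under vehicle on the right; points are hearts, horizontal lines are means and bars are 1 SD, and each panel has its own scale. The Veh-TAC hearts stand at 12.71 to 12.76 for Psmd8, above the 12.16 to 12.43 of the TUDCA-TAC hearts, and Psmd6 runs from 8.20 to 9.33 within the TUDCA-TAC group.

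TUDCA in sham-operated hearts was without a call by limma, both among the 41 genes and among all genes (0%). At an unadjusted p under 0.05 there were 0 of the 41 and 204 of all genes (2.45%). The smallest unadjusted p was that of Psmd1, which had a difference of -0.2 (95% interval -0.44 to 0.03). Psmb8 had 0.21 (95% interval -0.26 to 0.67), and the 41 differences ran from -0.22 to 0.21.

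Genes that work with the proteasome but carry other symbols were read from a list of 30 symbols, and 13 genes were measured. Some of the 30 symbols were aliases of the same gene, so fewer genes than that were listed. Under vehicle 0 of the 13 passed, while 25% of all genes did, and their median was -0.15. The lowest p-values were those of Ubqln4, a shuttle for ubiquitinated proteins, at -0.34 (adjusted p = 0.0529), and Ecpas, a proteasome adaptor, at -0.37 (adjusted p = 0.0557), with the deubiquitinase Uchl5 at -0.23 (adjusted p = 0.138). Pomp, the maturation factor of the core, was at 0.25 (adjusted p = 0.128), and Nfe2l2, a transcription factor of the antioxidant response, at 0.07. Between the banded groups, 1 of the 13 was higher with TUDCA and 0 were lower. That share of 7.69% was near the 8.17% of all genes that were higher. The gene was Ubqln4, at 0.55 in TUDCA-TAC relative to Veh-TAC hearts (SE 0.11, adjusted p = 0.00773).

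Of 8 genes measured for the loading of peptides on MHC class I, the step that takes up peptides of the immunoproteasome, 1 was higher and 0 were lower in the Veh-TAC group, a share at the background of 12.5% in each direction. B2m, the light chain of the complex, was higher by 0.54 (SE 0.15, adjusted p = 0.0188), while the heavy chain H2-K1 was at 0.35 (adjusted p = 0.431) and the folding enzyme Pdia3 at 0.11. The chaperone Calr was at -0.44 (adjusted p = 0.0961), the peptide transporter gene Tap2 at -0.33 (adjusted p = 0.139) and the loading factor Tapbp at -0.59 (adjusted p = 0.319). Of 7 interferon transcription factors, 2 were higher and 0 were lower, beside the same 12.5% of all genes in each direction: Irf8 by 0.55 (adjusted p = 0.00902), which is also a gene of myeloid cells, and Irf7 by 0.72 (adjusted p = 0.031). Stat2 was at 0.61 (adjusted p = 0.195), and Irf1, which drives the immunoproteasome genes, at 0.05 (adjusted p = 0.843). H2-K1 and Stat2 were dim and each detected on 11 of 13 arrays, at log2 signals of 5.87 to 7.37 and 6.07 to 8.04. Against the Veh-TAC group, Irf8 fell by 0.65 in the TUDCA-TAC group (adjusted p = 0.00582), and none of the genes of these lists passed in TUDCA-TAC against TUDCA-Sham hearts.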

How the data were processed

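RNA of 13 hearts was hybridized by the authors to Illumina MouseRef-8 v2 arrays, with 1 heart per array. The authors deposited the raw signal intensity of 25697 probes per array, each beside a detection p-value, and a second table of normalized log2 values (11732 probes). That table equals quantile-normalized log2 intensities without background removal (largest gap 0.119) for the probes detected on at least 8 arrays. Probes were named from the platform's gene table, and 654 probes of the deposited log2 table without a symbol were left out.

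Values were computed from the raw intensities with limma 3.58.1 in R 4.3.3: normexp background correction with negative controls taken from the detection p-values, an offset of 16, quantile normalization and log2. The genes analysed are those of the 11078 probes of the deposited log2 table that have a symbol, so a filter of detection p under 0.05 on 3 or more arrays removed none of them. The brightest probe represented each of 8336 genes. Of these genes, 2063 had more than 1 probe. The number of arrays limits the precision, since bead arrays hold no read depth; 11647 to 12791 probes were detected per array. Levels are not compared between probes.

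A means model of the 4 groups over 13 hearts was moderated by eBayes without trend, with Benjamini-Hochberg adjustment of p-values over all genes. The labels call the hearts biological replicates. Ratios of gene pairs were compared by exact permutation tests. Promoter sequences come from RefSeq (GRCm38.p6).

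The members and lists were chosen with earlier results of these data known. Every member may be named; values in each heart are given for the inducible genes, their constitutive counterparts and members that passed a comparison, and from other lists up to 3 genes per direction by the smallest p. Psmd1, Psmd6, Psmc6 and Psme4 are given by heart, and Irf1 is named, outside this rule, having been chosen after their values were seen. The ratios of gene pairs were added after the data were seen. Alternatives covered background, scaling, detection, probe choice, variance model, replicate block, array background, single hearts left out and the methods' t-test.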

Additional observations from a re-analysis of the deposited data

Results flagged for a closer look

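Within the TUDCA-TAC group of 4 hearts, each proteasome gene was checked for a heart far from the others, by the gap to its nearest neighbour over the range of the group. Of 41 genes, 2 exceeded Dixon's critical value, and chance passes about 1 gene in 20.

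Psmc5 in TUDCA-TAC replicate 3 was lowest at 12.51, while the other 3 hearts lay between 12.72 and 12.75, a gap of 0.88 of the range. Psmd1 in TUDCA-TAC replicate 4 was highest at 9.98, while the other 3 hearts lay between 9.66 and 9.68, a gap of 0.925 of the range. Replicate 4 was also the array with the lowest background, 141.4; the part of this in the Psmd1 value was not tested.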

How the results depend on the processing

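The count of proteasome genes that passed in Veh-TAC against Veh-Sham hearts, 4, was 8 in the authors' normalized table, 9 without background removal, 1 with median scaling, 7 with an intensity trend, 8 without TUDCA-TAC replicates 3 and 4 together, and 0 by the methods' t-test at over 1.5-fold and an unadjusted p under 0.05. Leaving out 1 heart gave 2 to 7, with 2 without Veh-Sham replicate 2, Veh-TAC replicate 2 or Veh-TAC replicate 3 and 7 without TUDCA-TAC replicate 4. The count of 3 for TUDCA-TAC against Veh-TAC was 0 with median scaling, with the array background as a term, with only these groups in the model and by both forms of the methods' t-test. It was 0 to 3 with 1 heart left out, with 1 without Veh-TAC replicate 2 and 0 without Veh-TAC replicate 3. The count was 0 for the TUDCA-TAC against TUDCA-Sham, TUDCA-Sham against Veh-Sham and difference comparisons in every setting run.

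The median of the inducible genes for Veh-TAC against Veh-Sham was 0.06 with median scaling, which moved the median of all genes to 0.12, against -0.03. For TUDCA-TAC against Veh-TAC the inducible median was 0.1 in the authors' table, 0.11 without background removal and 0.09 to 0.44 with 1 heart left out, the lowest without Veh-TAC replicate 2. Without TUDCA-TAC replicates 3 and 4 together the medians moved to 0.13 (inducible) and 0.07 (constitutive) for TUDCA-TAC against TUDCA-Sham, 0.09 (constitutive) for TUDCA-TAC against Veh-TAC and 0.28 (inducible) for the difference of responses. Replicates 3 and 4 were picked for low values of many of these genes, so that setting is no independent check. The causes of the changes between settings were not tested.

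With the replicate number as a block, the count for TUDCA-TAC against Veh-TAC was 1. The replicate numbers used here follow the order of the samples and are not the numbers in the sample titles. The sources used here do not state whether either numbering pairs the hearts, so this block has no known basis in the design. Same-numbered deviations correlated at -0.381 to 0.438, over 0.1 for 8 of 18 pairs, and 7 of 12 hearts correlated best with their own number. These correlations cannot settle whether same-numbered hearts share a batch. The setting without a detection filter left the same genes, because the deposited table had already removed dimmer probes. The slide as a block was not run, because no slide is given in the sources used here.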
